A study of Arabidopsis thaliana with 6 samples.

Results

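The 10 cellulose synthase (CESA) genes of Arabidopsis thaliana, CESA1 to CESA10, were taken from the deposited tables by their locus identifiers, and all 10 were found among the 32678 genes listed. They fell into 6 primary-wall members (CESA1, CESA2, CESA3, CESA5, CESA6 and CESA9), 3 secondary-wall members (CESA4, CESA7 and CESA8) and CESA10, which was placed in neither class. Polyadenylated RNA from whole seedlings was sequenced in 6 libraries, 3 of Col-0, the wild-type accession, and 3 of csu6-2, a mutant of COP1 SUPPRESSOR 6 (CSU6). All seedlings were 5 days old and had been kept in white light, so genotype was the only labelled difference. The mutant was represented by 1 allele, and no source used here names the locus of CSU6, so its transcript was not looked at. The labels do not say whether replicates came from separate cultures, so the p-values measure only the spread between these samples, which may be technical.

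Cellulose is made at the plasma membrane by rosette-shaped complexes of CESA proteins, which draw glucose units from UDP-glucose and extrude parallel glucan chains. In growing cells the complex needs CESA1, CESA3 and a member of the CESA6 class, in which CESA2, CESA5, CESA6 and CESA9 are partly interchangeable. In cells that lay down a thick secondary wall, such as xylem vessels and fibres, CESA4, CESA7 and CESA8 form the complex, and loss of any of them gives collapsed xylem. In dark-grown and shaded seedlings cellulose synthesis accompanies hypocotyl elongation, which PIF transcription factors promote and light restrains.

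Values are RPKM, that is reads per kilobase of gene length relative to library depth, so levels of different members can be set side by side. From the step size of the lowest values the depth was estimated at 27.62 to 43.29 M reads per library (M, mega), or read pairs if the authors counted pairs. At that depth CESA1 and CESA3 rested on an estimated 7240 to 12381 reads per library, CESA4, CESA7 and CESA8 on 192 to 929, CESA9 on 40 to 106 and CESA10 on 0 to 10.9. Pearson correlations across genes were taken on log2(RPKM + 1), over genes with at least 1 RPKM in 3 or more libraries. They were 0.9906 to 0.9931 between libraries of the same genotype and 0.9833 to 0.9886 between libraries of different genotypes. The label of whole seedlings was set against tissue markers: all 5 of root epidermis, 4 of xylem vessels, 4 of phloem and 4 of green tissue were above 0 in every library, while the 3 pollen markers were at 0.16 RPKM or less. The seed markers CRA1, OLEO1 and EM1 were also above 0 in every library, at 2.23 RPKM or less. Among root markers, COBL9 (0.72 to 1.3 RPKM) and LRX1 (0.8 to 1.66 RPKM) were no higher than that, so values this low do not tell tissues apart.

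CESA proteins are close relatives, so whether the reads of one member could be credited to another bears on every value below. In the RefSeq TAIR10.1 annotation the coding sequences of CESA5 and CESA6 were the most alike, with 85.7% identity at aligned bases, followed by CESA2 and CESA9 (84.6%) and CESA1 and CESA10 (84%). The longest stretch shared without a mismatch by any pair was 50 bases, in CESA5 and CESA6. It is shown here on the plus strand with 40 bases to either side, the shared stretch in capitals.
CESA5, chr5:3075988-3076117: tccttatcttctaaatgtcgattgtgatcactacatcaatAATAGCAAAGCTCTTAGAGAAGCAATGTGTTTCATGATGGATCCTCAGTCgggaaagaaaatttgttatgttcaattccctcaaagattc
CESA6, chr5:25884333-25884462: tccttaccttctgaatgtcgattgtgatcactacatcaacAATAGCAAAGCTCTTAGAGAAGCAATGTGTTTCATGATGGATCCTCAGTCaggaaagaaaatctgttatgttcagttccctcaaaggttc
Of 3161 windows of 50 bases in the CESA5 coding sequence and 3206 in that of CESA6, 1 was shared with another member. In the other 8 members no window of 50 bases recurred in another CESA coding sequence. Reads of 50 or more bases from the coding sequences could therefore be told apart by an exact match in nearly all positions, although no source used here states the read length or the handling of multiple matches.

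In wild-type seedlings the primary-wall members other than CESA9 stood above the secondary-wall members, and CESA9 stood below them. CESA3 (AT5G05170; chromosome 5, 1530132 to 1535558, minus strand, in TAIR10.1), a required subunit of the primary-wall complex, was the most abundant, at 71.37, 74.77 and 68.77 RPKM in Col-0 replicates 1, 2 and 3. CESA1 (AT4G32410; chromosome 4, 15640490 to 15646844, minus strand), the other required subunit, followed at 62.9, 61.27 and 62.09 RPKM. CESA6 (AT5G64740; chromosome 5, 25881033 to 25886728, plus strand), the main CESA6-class subunit of dark-grown hypocotyls, stood at 36.29, 38.75 and 34.33 RPKM. CESA5 and CESA2 came next, with Col-0 means of 28.3 ± 1.18 and 19.4 ± 0.945 RPKM (SD, n = 3 each), and the gap from CESA2 down to CESA4 was 3.94-fold.

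The secondary-wall members were lower than every primary-wall member except CESA9, and in a fixed order. CESA4 (AT5G44030; chromosome 5, 17714390 to 17719723, plus strand) had a mean level of 4.93 ± 0.123 RPKM in Col-0, CESA7 (AT5G17420; chromosome 5, 5736630 to 5741500, minus strand) 3.55 ± 0.406 RPKM and CESA8 (AT4G18780; chromosome 4, 10312624 to 10316886, minus strand) 2.28 ± 0.191 RPKM. Their levels were in a ratio of 2.17 ± 0.144 for CESA4 to CESA8 and 1.55 ± 0.0534 for CESA7 to CESA8 in Col-0, and of 2.22 ± 0.162 and 1.5 ± 0.117 in csu6-2. CESA9 and CESA10 were the least abundant members. In Col-0 every member lay above the next one down in all 3 libraries, so the order CESA3, CESA1, CESA6, CESA5, CESA2, CESA4, CESA7, CESA8, CESA9, CESA10 held beyond the replicate spread.

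In csu6-2 the order was the same at the top and the bottom and differed in the middle. CESA2 and CESA5, which were 1.46-fold apart in Col-0, had nearly equal means in the mutant (23.3 ± 0.909 and 23 ± 3.97 RPKM) and their libraries overlapped. The ranges of CESA3 and CESA1 across the csu6-2 libraries also overlapped, at 72.6 to 77.7 and 63.8 to 73.2 RPKM. Within each mutant library CESA3 was still the higher, at 1.06, 1.14 and 1.09 times CESA1 in csu6-2 replicates 1, 2 and 3. The ranges of the remaining neighbours in the order kept apart across the 3 mutant libraries.

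**Figure D1:**
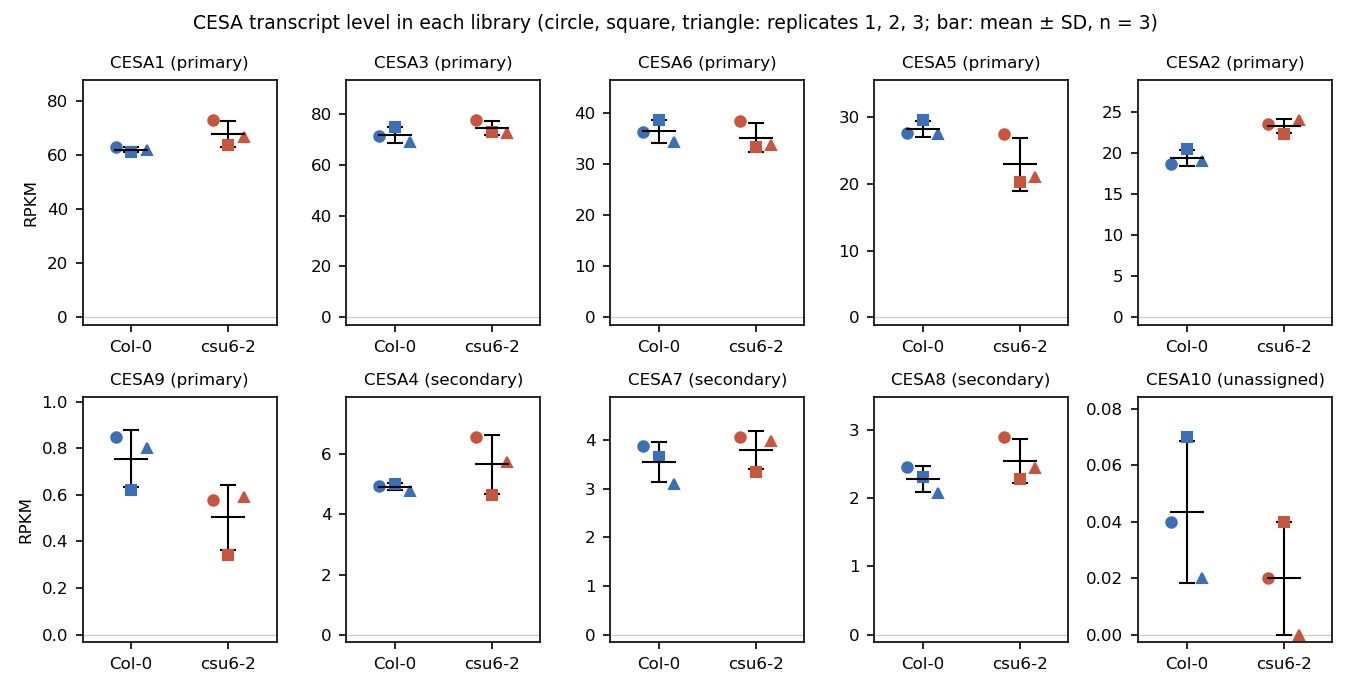
RPKM of each CESA gene (vertical axes, linear, each scaled to its own gene) in the 3 Col-0 and 3 csu6-2 libraries, with points for libraries and bars for the mean ± SD. CESA1 and CESA2 lie higher and CESA5 and CESA9 lower in all csu6-2 libraries than in all Col-0 libraries. CESA3, CESA6, CESA4, CESA7, CESA8 and CESA10 overlap.

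Set against Col-0, csu6-2 showed small differences in the family. Of the 8 members that passed the filter (a value of at least 1 RPKM in 3 or more libraries), 1 passed the threshold, CESA2, which was higher in the mutant, and 7 did not pass. Over all 18885 genes tested, 12.9% were called in either direction (3.55% higher and 9.38% lower), so 1 of 8 members is near the background share. With libraries rescaled by median-of-ratios factors, 5.64% of genes were higher and 5.89% lower, and again CESA2 was the member called. The groups did not overlap for 3 of the 8 tested members, CESA1 and CESA2 above and CESA5 below, beside 32.0% of all tested genes (9.04% above and 23.0% below). The median log2 change of the 8 members was 0.09, beside -0.07 over all tested genes, with every change given as the mutant mean minus the wild-type mean of log2(RPKM + 1), a scale that shrinks changes of genes of low level.

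CESA2 (AT4G39350; chromosome 4, 18296388 to 18302192, plus strand) is a CESA6-class subunit that can stand in for CESA6 and also acts in seed coat epidermis. It was listed at 18.67, 20.47 and 19.07 RPKM in Col-0 and at 23.51, 22.3 and 24.08 RPKM in csu6-2. The lowest mutant library exceeded the highest wild-type one, with a difference between means 1.2-fold in size. CESA2 rose by a log2 change of 0.25 (SE 0.08, 95% interval 0.09 to 0.42, adjusted p = 0.0473). The call was marginal: it was lost with any of the 6 libraries left out (log2 changes 0.23 to 0.29, adjusted p = 0.0681 to 0.157), and with no filter on low values (adjusted p = 0.0645), while with median-of-ratios scaling it was a log2 change of 0.33 (adjusted p = 0.0121). Among all called genes, 97.8% had a larger absolute log2 change.

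CESA5 (AT5G09870; chromosome 5, 3072870 to 3078416, plus strand) is the CESA6-class subunit known for its part in the cellulose of seed coat mucilage. Its levels were 27.71, 29.66 and 27.52 RPKM in Col-0 and 27.51, 20.28 and 21.06 RPKM in csu6-2. The groups did not overlap, but csu6-2 replicate 1 lay 0.01 RPKM below the lowest wild-type library, far from the other 2 mutant libraries. With a log2 change of -0.3 (SE 0.1, 95% interval -0.53 to -0.08) CESA5 did not pass over all genes (adjusted p = 0.0758). Without csu6-2 replicate 1 the log2 change was -0.43 and passed (adjusted p = 0.00763), in a fit that called 12.4% of genes, 2.85% higher and 9.56% lower, and without any other library it did not pass (adjusted p = 0.114 to 0.257).

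CESA1 and CESA3, the subunits that every primary-wall complex needs, did not pass. CESA1 was listed at 73.18, 63.77 and 66.63 RPKM in csu6-2, above all Col-0 libraries, with a log2 change of 0.12 (95% interval -0.03 to 0.28, adjusted p = 0.292). CESA3 was listed at 77.73, 72.9 and 72.62 RPKM in csu6-2, within reach of the highest Col-0 library, with a log2 change of 0.05 (95% interval -0.1 to 0.2, adjusted p = 0.665). Median-of-ratios scaling moved both upward without a call, CESA1 to a log2 change of 0.2 (95% interval 0.05 to 0.34, adjusted p = 0.0765) and CESA3 to 0.13 (95% interval -0.01 to 0.27, adjusted p = 0.214). Without csu6-2 replicate 1 they were 0.07 and 0.02.

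CESA6 was listed at 38.5, 33.3 and 33.78 RPKM in csu6-2, overlapping Col-0. Its log2 change was -0.05 (95% interval -0.23 to 0.12, adjusted p = 0.733) and its sign turned with median-of-ratios scaling (log2 change 0.02, adjusted p = 0.864). CESA9 (AT2G21770; chromosome 2, 9284391 to 9289744, plus strand), a CESA6-class member that acts in the seed coat, was listed at 0.85, 0.62 and 0.8 RPKM in Col-0 and 0.58, 0.34 and 0.59 RPKM in csu6-2. It was lower in every mutant library but fell below the filter. In a fit with no filter its log2 change was -0.23 (adjusted p = 0.21), in which 7.14% of genes were called, 2.07% higher and 5.07% lower.

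Within a library, the ratio of 2 members does not depend on how the library was scaled, so the shift between CESA2 and CESA5 was also read as a ratio. These ratios were chosen after the levels were seen and carry no test. The level of CESA5 divided by that of CESA2 was 1.48, 1.45 and 1.44 in Col-0 and 1.17, 0.909 and 0.875 in csu6-2. The mutant libraries were all lower and more widely spread (mean 1.46 ± 0.0222 against 0.985 ± 0.162, SD, n = 3 each), and csu6-2 replicate 1 was the nearest to wild type.

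The CESA6 class (CESA2, CESA5, CESA6 and CESA9) was also summed. Its 4 members summed to 83.5, 89.5 and 81.7 RPKM in Col-0 and 90.1, 76.2 and 79.5 RPKM in csu6-2, which overlapped. Divided by CESA1, that sum was 1.33, 1.46 and 1.32 in Col-0 and 1.23, 1.2 and 1.19 in csu6-2, without overlap. Divided by CESA3, it was 1.17, 1.2 and 1.19 in Col-0 and 1.16, 1.05 and 1.09 in csu6-2, also without overlap but by a narrow margin. These ratios carry no test either, and how often ratios of other genes do not overlap was not counted. Inside the class, CESA6 held 42.9 ± 0.791% of the class sum in wild type and 43 ± 0.636% in the mutant, whereas CESA2 went from 22.9 ± 0.491% to 28.5 ± 2.18% and CESA5 from 33.3 ± 0.299% to 27.9 ± 2.3%.

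**Figure D2:**
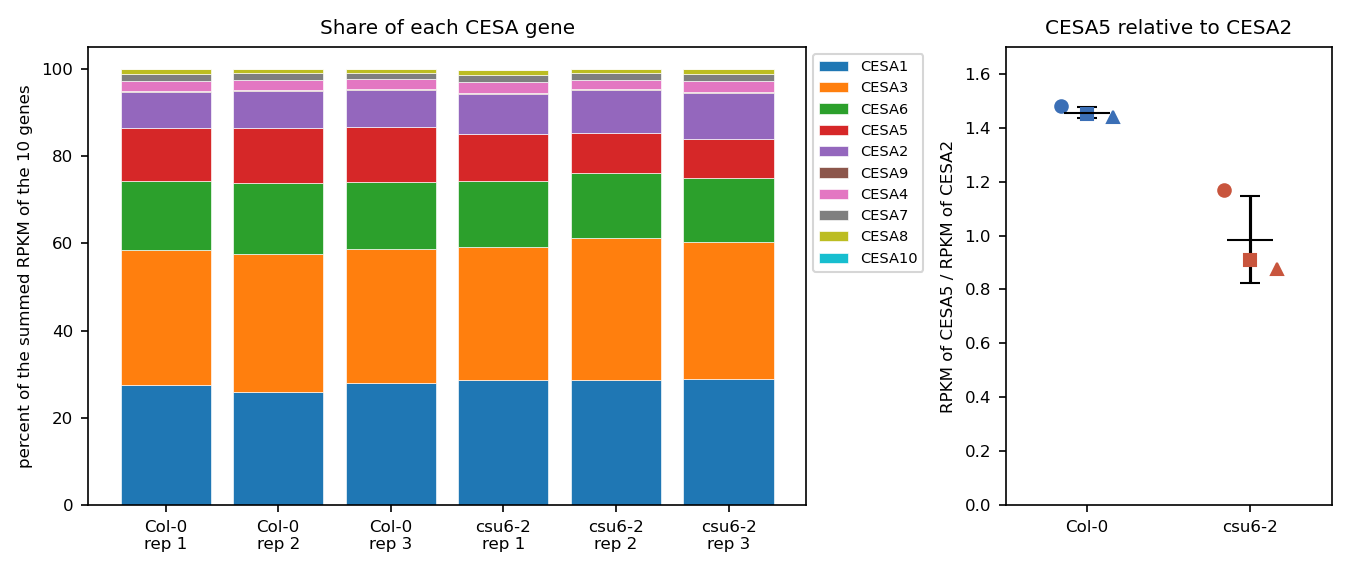
Left, share of each CESA gene in the summed RPKM of the 10 genes (percent, stacked bars, 1 bar per library). Right, level of CESA5 divided by that of CESA2 in each library, with the mean ± SD, between 1.44 and 1.48 in Col-0 and between 0.875 and 1.17 in csu6-2.

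Summed, the primary-wall members stood at 219 ± 6.52 RPKM in Col-0 and 224 ± 14.8 RPKM in csu6-2, and the groups overlapped. The difference of 5.58 RPKM (mutant minus wild type) turned to -2.81 RPKM without csu6-2 replicate 1 and was 17.1 RPKM with median-of-ratios scaling, so the sums give no direction. The 3 secondary-wall members summed to 11.3, 11 and 9.97 RPKM in Col-0 and to 13.6, 10.3 and 12.2 RPKM in csu6-2, a difference of 1.25 RPKM that was 0.47 RPKM without csu6-2 replicate 1 and 2.11 RPKM without csu6-2 replicate 2. The secondary-wall sum was 4.92 ± 0.254% of the primary-wall sum in Col-0 and 5.34 ± 0.441% in csu6-2, again with overlap. In whole seedlings, fewer cells of a type and less RNA per cell cannot be told apart.

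None of the 3 secondary-wall members passed, and all 3 overlapped between genotypes. CESA4 was listed at 4.96, 5.03 and 4.79 RPKM in Col-0 and 6.59, 4.66 and 5.75 RPKM in csu6-2 (log2 change 0.16, 95% interval -0.09 to 0.41, adjusted p = 0.407). Its mutant libraries were spread on both sides of the wild-type ones. CESA7 was listed at 3.89, 3.66 and 3.1 RPKM in Col-0 and 4.07, 3.35 and 3.98 RPKM in csu6-2 (log2 change 0.08, 95% interval -0.18 to 0.33, adjusted p = 0.714). CESA8 was listed at 2.46, 2.31 and 2.08 RPKM in Col-0 and 2.9, 2.28 and 2.44 RPKM in csu6-2 (log2 change 0.11, 95% interval -0.16 to 0.37, adjusted p = 0.623). In all 3 genes csu6-2 replicate 1 was the highest mutant library and csu6-2 replicate 2 the lowest. Without csu6-2 replicate 1 the log2 changes were 0.06 for CESA4, 0.04 for CESA7 and 0.03 for CESA8. Without csu6-2 replicate 2 they were larger, 0.27 for CESA4 (adjusted p = 0.155), 0.15 for CESA7 and 0.16 for CESA8, and again none passed.

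Across the family, csu6-2 replicate 1 held the highest mutant value in 7 of the 8 tested members, the exception being CESA2, and csu6-2 replicate 2 the lowest in 7 of 8. The median deviations of the tested members from the mutant mean were 0.12, -0.1 and -0.03 log2 units for csu6-2 replicates 1, 2 and 3. Over genes above 0 in every library, the median-of-ratios factors had the same order, at 1.012, 0.946 and 0.973. The share of all genes with this order was not counted, so whether it is particular to the family was not tested. The 4 xylem vessel markers, XCP1, XCP2, ACL5 and MC9, summed to 97.2 to 106 RPKM in Col-0 and 98.6 to 106 RPKM in csu6-2, and none of them passed (log2 changes -0.02 to 0.05). Of the 4 green tissue markers 1 passed, while RBCS1A, RCA, LHCB2.1 and LHCA1 together summed to 15500 to 17800 RPKM in Col-0 and 21300 to 24400 RPKM in csu6-2. LHCA1, a photosystem I antenna gene, was higher (log2 change 1.11, adjusted p = 0.00645), but not past the threshold without csu6-2 replicate 3 (adjusted p = 0.0653). LHCB2.1, a photosystem II antenna gene, had a log2 change of 1.37 (adjusted p = 0.0522), RBCS1A, a Rubisco small subunit gene, 0.2 (adjusted p = 0.145) and RCA, the Rubisco activase gene, 0.12 with overlap (adjusted p = 0.469). RPKM divides by the reads of the library, so abundant transcripts bear on the value of other genes, and the part of these in the CESA values was not tested.

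**Figure D3:**
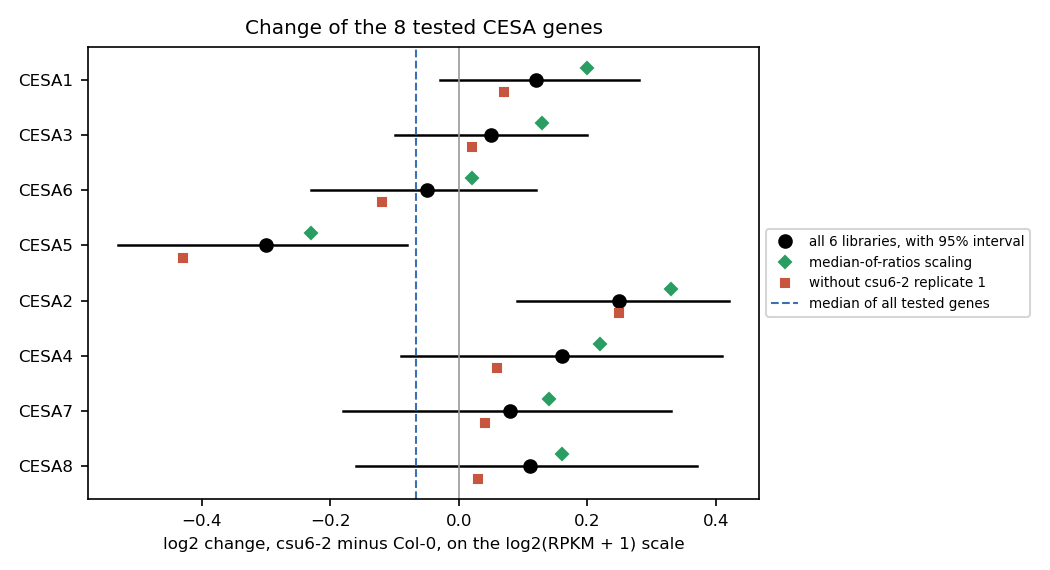
Difference of mean log2(RPKM + 1), mutant minus wild type, for the 8 tested CESA genes, with the 95% interval from limma over all 6 libraries (circles), with median-of-ratios scaling (diamonds) and without csu6-2 replicate 1 (squares), and a dashed line at the median of all tested genes (-0.07). Intervals are drawn for the circles only: those of CESA2 and CESA5 lie on opposite sides of 0, and those of the other 6 genes include 0 in that fit.

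CESA10 (AT2G25540; chromosome 2, 10866822 to 10872243, minus strand), the close relative of CESA1 with no settled role in the seedling, was close to undetected. It was listed at 0.04, 0.07 and 0.02 RPKM in Col-0 and 0.02, 0.04 and 0 RPKM in csu6-2, at most 0.114% of the CESA1 value in the same library. With an estimated 0 to 10.9 reads per library no difference was detectable at this depth. Its annotated exons also share 89 bases with AT2G25530 on the opposite strand, which stood at 4.68 to 6.46 RPKM, and the strand setting used for counting is unknown here.

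Other members also share short exonic ends with neighbours. CESA4 overlaps AT5G44020, annotated as a HAD superfamily acid phosphatase gene, by 17 bases on the same strand. AT5G44020 had 145 ± 8.97 RPKM in Col-0 and was higher in csu6-2, at 201 ± 21.9 RPKM (log2 change 0.47, adjusted p = 0.00353), and its part in the CESA4 values was not tested. CESA8 shares 481 bases with the opposite-strand gene MYB98, which was listed at 0 RPKM in all 6 libraries. It also shares 81 bases with the opposite-strand gene AT4G06845, for which no value was listed. CESA4 shares 65 bases with AT5G44040 on the opposite strand. That gene stood at 10.38 to 12.61 RPKM in Col-0 and 8.04 to 10.59 RPKM in csu6-2, and its part was not tested. The overlaps of CESA1, CESA3 and CESA7 with opposite-strand neighbours were 28, 74 and 66 bases.

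The regions just upstream of the annotated gene starts were read from the TAIR10.1 genome, 300 bases each, on the strand of the gene. Those of CESA2 and CESA5, the members with the highest and the lowest log2 change among those tested, are shown with E-box letters (CANNTG, a form bound by PIF and other basic helix-loop-helix factors) in capitals.
CESA2, chr4:18296088-18296387, plus strand: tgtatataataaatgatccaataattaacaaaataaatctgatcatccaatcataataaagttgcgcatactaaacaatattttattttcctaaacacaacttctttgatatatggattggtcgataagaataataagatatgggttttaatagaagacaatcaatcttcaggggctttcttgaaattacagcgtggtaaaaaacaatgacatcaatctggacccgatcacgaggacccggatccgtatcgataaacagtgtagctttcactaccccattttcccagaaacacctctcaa
CESA5, chr5:3072570-3072869, plus strand: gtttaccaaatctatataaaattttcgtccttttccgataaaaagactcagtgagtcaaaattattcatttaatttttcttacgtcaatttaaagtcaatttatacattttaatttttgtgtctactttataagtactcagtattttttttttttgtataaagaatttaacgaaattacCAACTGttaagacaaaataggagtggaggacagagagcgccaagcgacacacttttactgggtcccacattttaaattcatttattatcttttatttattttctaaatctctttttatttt
The CESA5 window held 1 E-box, CAACTG, 121 to 116 bases before the start, and the CESA2 window none. Searched on both strands, CANNTG stood in 8 of the 10 CESA windows (all but CESA2 and CESA3), beside 61.9% of 26711 protein-coding genes. The G-box CACGTG, itself a CANNTG match and the form PIF proteins prefer, stood in the window of 1 member, CESA10, beside 7.2% of genes. The evening element AAAATATCT stood in 0 of 10, beside 2.8%.

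The tracheary element-regulating element, a motif known from xylem vessel genes, stood in the window of 1 member, CESA4, beside 0.4% of genes. It lay 20 to 10 bases before the annotated start and is shown in capitals within 30 bases.
CESA4, chr5:17714356-17714385, plus strand: gaaatacataataaCTTGAAAGCTActcta
All 300 bases of this window also lie in annotated exons of AT5G44020. These matches describe the letters in these windows and do not show binding.

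Genes that work with the CESA complex were counted by the same fit, in which 3.55% of all tested genes were higher and 9.38% lower. Of 16 genes for partners and trafficking of the complex, 13 were tested, 1 was higher and 0 lower, with a median log2 change of 0.05. KOR1, an endoglucanase that travels with the complex, had 109 ± 5.03 RPKM in Col-0 and 118 ± 8.66 RPKM in csu6-2 (log2 change 0.1, adjusted p = 0.407). CSI1, which links the complex to microtubules, had 9.29 ± 0.392 and 9.76 ± 1.36 RPKM (log2 change 0.06, adjusted p = 0.766). COB, a membrane-anchored protein needed for oriented cellulose deposition, and CTL1, a chitinase-like protein needed for cellulose synthesis, had log2 changes of 0.05 and 0.14 (adjusted p = 0.696 and 0.259). AT1G45688 and AT5G42860, for which the reference gives no symbol, had log2 changes of -0.19 and 0 (adjusted p = 0.146 and 0.995).

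The member of that list that passed was AT5G06970, annotated as a DUF810 protein. It was listed at 11.53, 10.62 and 10.36 RPKM in Col-0 and 14.05, 13.69 and 14.46 RPKM in csu6-2, all above wild type (log2 change 0.35, adjusted p = 0.0148). The call ended on leaving out Col-0 replicate 2 (adjusted p = 0.0585) or, separately, csu6-2 replicate 3 (adjusted p = 0.0617). Of 9 tested genes that supply UDP-glucose, 0 were higher and 1 was lower, with a median log2 change of -0.19. CINV2, a cytosolic invertase that feeds glucose toward UDP-glucose, fell from 14.88, 16.46 and 13.94 RPKM in Col-0 to 11.98, 10.71 and 9.83 RPKM in csu6-2 (log2 change -0.44, adjusted p = 0.00921), a call lost when Col-0 replicate 2 was left out (adjusted p = 0.0502).

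Secondary wall genes outside the CESA family were described by 2 lists. Of 20 genes for secondary wall synthesis, all tested, 0 were higher and 1 was lower, with a median log2 change of 0.08, and with median-of-ratios scaling 2 were higher and 0 lower. COBL4 and CTL2, relatives of COB and CTL1 that act in secondary walls, had log2 changes of -0.02 and 0.14 (adjusted p = 0.94 and 0.513). COBL4 turned in sign with that scaling (log2 change 0.03). IRX9 and IRX10, which build the xylan backbone, had log2 changes of 0.17 and -0.1 (adjusted p = 0.505 and 0.567). PARVUS, a glycosyltransferase of xylan synthesis, was lower (6.68 ± 0.558 against 5.05 ± 0.393 RPKM, log2 change -0.34, adjusted p = 0.0417), but median-of-ratios scaling ended the call (adjusted p = 0.111), as did leaving out any of the 6 libraries (adjusted p = 0.0505 to 0.136).

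Of 25 transcription factor genes of secondary walls, 17 were tested, 0 were higher and 1 was lower, with a median log2 change of 0.01. VND7, a NAC factor that switches on vessel formation, and MYB46, a MYB factor that activates CESA4, CESA7 and CESA8, had log2 changes of 0.02 and 0.03 (adjusted p = 0.946 and 0.908). MYB83, the partner of MYB46, was under the filter, at 0.767 ± 0.211 RPKM in Col-0 and 0.613 ± 0.0551 RPKM in csu6-2. SND3, a NAC factor of fibre walls, was lower, at 4.06, 4.23 and 3.71 RPKM in Col-0 and 2.88, 1.82 and 3.04 RPKM in csu6-2 (log2 change -0.5, adjusted p = 0.0349). The SND3 call was lost under median-of-ratios scaling (adjusted p = 0.0573) and on leaving out Col-0 replicate 1 (adjusted p = 0.0696), Col-0 replicate 2 (0.121) or csu6-2 replicate 2 (0.115).

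The cellulose synthase-like genes, which share the catalytic fold of CESA proteins and some of which make other wall polysaccharides, were the longest of the 6 wall lists. Of 30 genes, 21 were tested, 2 were higher and 3 lower, beside 3.55% and 9.38% of all tested genes, with a median log2 change of -0.14, and with median-of-ratios scaling 2 were higher and 1 lower. CSLC4, a synthase of the xyloglucan backbone, was listed at 13.42, 12.09 and 10.6 RPKM in Col-0 and 15.68, 16.45 and 16.43 RPKM in csu6-2 (log2 change 0.4, adjusted p = 0.0124). CSLA3, of the mannan synthase group, was listed at 8.97, 9.09 and 8.03 RPKM in Col-0 and 11.67, 10.97 and 13.67 RPKM in csu6-2 (log2 change 0.43, adjusted p = 0.0122). These were the 2 tested genes of the list that lay above Col-0 without overlap, and 8 lay below without overlap. Over all tested genes those shares were 9.04% above and 23.0% below. Leaving out csu6-2 replicate 2 ended the CSLC4 call (adjusted p = 0.0525), and leaving out csu6-2 replicate 3 that of CSLA3 (adjusted p = 0.0627).

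CSLB3, of the CSLB group, was lower, at 13.5, 14.56 and 13.13 RPKM in Col-0 and 10.99, 8.32 and 7.93 RPKM in csu6-2 (log2 change -0.56, adjusted p = 0.00587). Its call held in every alternative tried. CSLE1 and CSLA15 were also lower (log2 changes -0.31 and -0.54, adjusted p = 0.0232 and 0.0345), and are named here after their values were seen. Both calls were lost under median-of-ratios scaling (adjusted p = 0.0543 and 0.0658) and on leaving out each of 4 libraries in turn (adjusted p = 0.0585 to 0.0938 for CSLE1 without Col-0 replicates 1 or 2 or csu6-2 replicates 2 or 3, and 0.0527 to 0.138 for CSLA15 without Col-0 replicates 2 or 3 or csu6-2 replicates 2 or 3). Of 7 wall integrity receptor genes, 6 were tested and 0 passed in either direction, with a median log2 change of 0.08. Markers of phloem passed in 1 of 4 cases, beside 3.55% of all tested genes higher and 9.38% lower. That marker was APL, a phloem identity factor (log2 change 0.59, adjusted p = 0.000857). SUC2, SEOR1 and SEOR2 overlapped between genotypes (log2 changes 0.06, 0.13 and -0.04, adjusted p = 0.722, 0.41 and 0.842). Of the 4 tested root epidermis markers 0 passed, and no seed or pollen marker passed the filter.

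**Figure D4:**
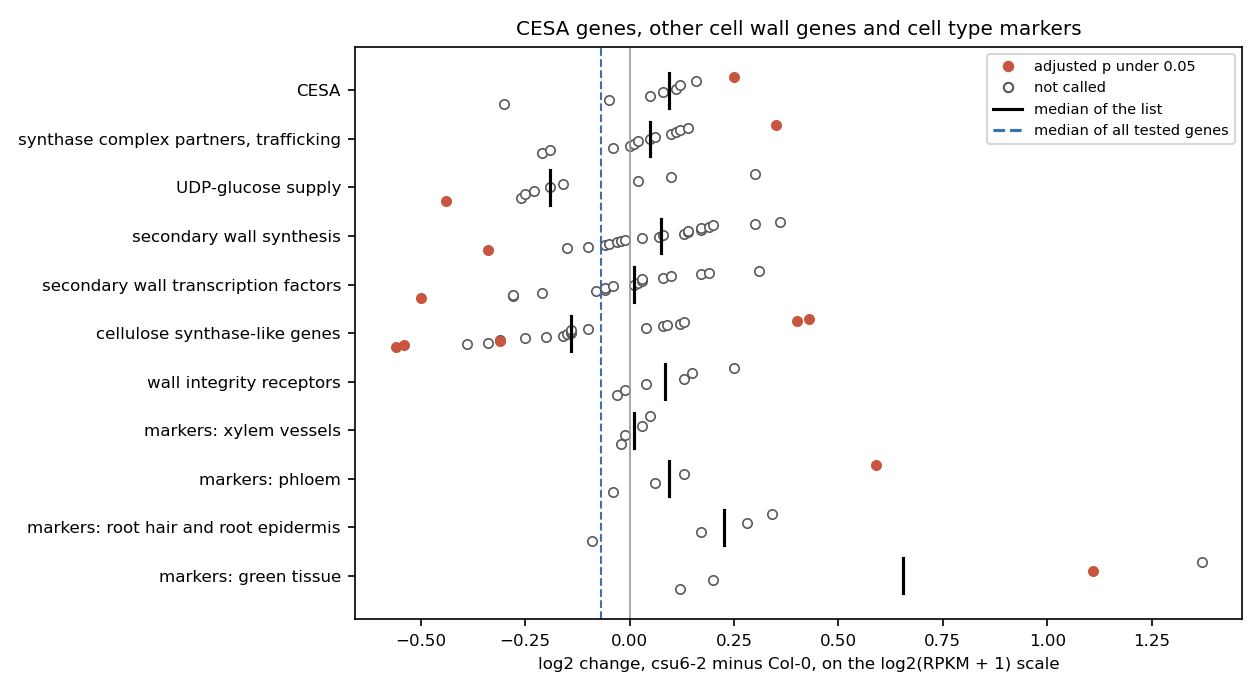
Difference of mean log2(RPKM + 1), mutant minus wild type, for each tested gene (points, filled where the adjusted p was under 0.05), by list, with the median of each list (black bars) and of all tested genes (dashed line, -0.07). The CESA genes lie between -0.3 and 0.25, with 1 called.

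The genes whose pattern over the 6 libraries was nearest to the mean of CESA4, CESA7 and CESA8, by the root mean square difference of centred log2 values, were AT4G17080, GTE8, AT1G56230, AT4G00755 and RHA1B, at distances of 0.023 to 0.026. The median over all other tested genes was 0.166, and the 3 members themselves lay at 0.031 to 0.054. Nearest to the mean of CESA1, CESA3 and CESA6 were ELF8, ETR1, FAS2, MPPBETA and SNX2a, at 0.012 to 0.017, where the median was 0.135. None of these 10 genes is in the wall lists above. Both patterns were nearly flat, between -0.15 and 0.2 and between -0.07 and 0.12 on the log2 scale, with the highest value in csu6-2 replicate 1, so small differences between libraries decide which genes are nearest.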

How the data were processed

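The authors deposited 1 table per library with a value for each of 32678 genes and no header. The submitters' processing notes name edgeR 3.0.8, HISAT2 and the TAIR10 build without saying what each was used for. No source used here states the counting program, annotation, gene lengths or strand setting. The unit was read from the deposited values as RPKM: totals differed between libraries (coefficient of variation 0.97%), but less so once multiplied by exon length (0.27%). The depth estimate takes the step between the lowest values as 1 read and is not a count, so intervals for counting error were left out. Steps were searched for only within a preset range. Reads per member also rest on reference exon lengths, which may differ from those the authors used.

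Genes with at least 1 RPKM in 3 or more libraries (18885) were compared as log2(RPKM + 1) by limma 3.58.1 (R 4.3.3, statmod 1.5.0), using lmFit and the trended, robust form of eBayes, two-sided, with Benjamini-Hochberg adjustment over all of them and a threshold of 0.05. The 10 members and the 12 other lists (143 genes in all, 0 dropped) were chosen with earlier results of these data known. For 10 entries the reference gives no such symbol, and these are printed by identifier. Named are all members, a fixed set of 13 wall genes, the called members of each other list (the 3 of lowest adjusted p where more were called) and the 5 genes nearest to each of 2 CESA patterns. The neighbour AT5G44020 was named after its values were seen. Sequences are from RefSeq TAIR10.1 (Biopython 1.88). Alternatives were 2 pseudocounts, 2 filters, another scaling, eBayes without trend, a replicate block and leaving out each library.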

Additional observations from a re-analysis of the deposited data

How the results depend on the processing

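CESA2 was the member called higher, and that count of 1 primary-wall member went to 0 with no filter on low values, with eBayes without trend and robust (adjusted p = 0.0761) and with the replicate block (adjusted p = 0.0505), and was 0 with each library left out. The count of primary-wall members called lower was 0, and 0 to 1 with a library left out (CESA5 without csu6-2 replicate 1). The secondary-wall counts were 0 in each direction under all alternatives run (by limma, 0 of 3 had an unadjusted p under 0.05 over all 6 libraries, whereas CESA4 had one without csu6-2 replicate 2, with an adjusted p of 0.155). Over all genes, 671 were higher and 1771 lower, which became 1066 and 1113 with median-of-ratios scaling, and 389 to 674 and 859 to 1790 with a library left out. Over the wall lists, 3 genes were higher and 6 lower, 5 and 2 with that scaling, 2 lower with no filter, and 1 to 3 and 1 to 9 with a library left out. Among the named genes, signs turned for 6 that were not called: CESA6 (log2 change 0.02) and COBL4 (0.03) with that scaling, and, over the fits with a library left out, CSI1 (-0.02 to 0.16), AT5G42860 (-0.1 to 0.09), COBL4 (-0.15 to 0.09), VND7 (-0.03 to 0.09) and MYB46 (-0.05 to 0.16). Deviations from the genotype means correlated at 0.204, 0.051 and 0.221 between same-numbered libraries. Between differently numbered libraries of the 2 genotypes the correlations were -0.304 to 0.121. Deviations from a genotype mean cancel within each genotype, so positive correlations in some pairs bring negative ones in others. The contrast between these ranges is therefore partly built in. Whether the numbers pair the samples was not tested. With the replicate block, 813 genes were higher and 2156 lower, and LHCA1 was not called (adjusted p = 0.104). The cause of these differences was not tested.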
